A study of Mus musculus with 4 samples.

Results

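Cyclins, cyclin-dependent kinases (CDKs) and genes of mitosis were followed in natural killer T (NKT) cells stimulated through their antigen receptor and in resting NKT cells. The genes were chosen by their symbols alone. The set took the A, B, D and E cyclins, numbered CDKs, CDK inhibitors, Cdc20, the Cdc25, E2f, Aurora, Polo-like, Bub and Mad2 genes, the kinesins (Kif) and the centromere proteins (Cenp), together with Mki67, Top2a and Birc5. It held 88 of the 12021 genes in the count table, of which 85 passed the filter on low counts. The table has no count under 1 in any library, so a gene at 0 in even a single library has no row. No B cyclin, Cdk1, Plk1, Bub1 or Aurkb is among the 88, and these are not analysed here.

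Both groups came from C57BL/6 mice aged 10 to 12 weeks that carried a Vα14 T cell receptor transgene (Va14 Tg) and GFP on 1 allele of Cxcr6 (cxcr6gfp/+), and were sorted as GFPhi cells. Stimulated cells were exposed to plate-coated mCD1d-PBS57 tetramers (2 libraries, called tetramer libraries 4 and 5 after their column numbers). The others stayed resting (2 libraries, resting libraries 4 and 5). The transgene fixes the receptor chain typical of NKT cells, its promoter is not named, and neither pooling of mice nor the independence of the paired libraries is stated. The tissue is given as liver, with livers or spleens in the sorting text and islets in the extraction text, and the sources used here do not state how long stimulation lasted.

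A resting T cell sits outside the cell cycle, with CDK inhibitors such as p27 (Cdkn1b) holding its kinases in check. Receptor signals induce D cyclins, which activate CDK4 and CDK6, and these kinases inactivate the retinoblastoma pocket proteins and so release E2F transcription factors. E2F targets include the E and A cyclins, which with CDK2 start and carry out DNA synthesis. Genes of chromosome segregation follow later, and many of them carry a cell cycle homology region (CHR) in the promoter.

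Library totals ran from 5398551 to 5495521 counts in the tetramer libraries and from 4168438 to 4433048 in the resting libraries. Of 11 NKT and T cell markers all 11 were in the table, with a summed level of 2794 to 3686 CPM (counts per 1000000, scaled with TMM) in tetramer libraries and 3479 to 3856 CPM in resting libraries. Sums of other lists were lower in tetramer libraries for red cells (3 of 4 genes in the table, 19.2 to 45.9 CPM, against 89.9 to 246.6 CPM in resting libraries), hepatocytes (2 of 6 genes, 8.18 to 11.5 against 24.9 to 37.2 CPM), macrophages (4 of 11 genes, 9.003 to 11.3 against 21.3 to 26.7 CPM) and B cells (4 of 5 genes, 13.3 to 16.6 against 21.3 to 29.7 CPM). The same held for CD8 T cells (2 of 2 genes, 12.3 to 17.4 CPM in tetramer libraries and 35.2 to 67.3 CPM in resting libraries), neutrophils (2 of 5 genes, 1.84 to 3.24 and 17.95 to 19.5 CPM) and endothelial or stellate cells (1 of 6 genes, 10.2 to 15.8 and 28.8 to 75.0 CPM). The sums overlapped for NK cells (1 of 4 genes, 4.30 to 8.29 CPM in tetramer and 7.67 to 14.7 CPM in resting libraries), dendritic cells (4 of 5 genes, 76.3 to 269.8 and 262.1 to 266.3 CPM) and pancreatic islet hormones (4 of 4 genes, 223.6 to 410.4 and 251.1 to 931.5 CPM). Single genes did not all follow the sums in the edgeR test used below. Of the B cell genes 1 was called higher and 1 lower, and of the dendritic cell genes 2 higher and 0 lower. Of the NKT and T cell markers 0 were called higher and 2 lower, and in each other list 0 were higher. Over all tested genes 14.3% were called higher and 12.1% lower. Alb, Lyz2, Ncr1 and Flt3, which define hepatocytes, myeloid cells, NK cells and dendritic precursors, had no row. The part of any such cells in the results below was not tested, and in sorted bulk samples fewer cells of a type and less RNA per cell cannot be told apart.

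Cyclins E1, E2, A2 and D2, Cdk4, Cdk6, Cdc25a, E2f2, E2f3, Mki67 and Top2a were higher in tetramer cells. Among the CDK inhibitors Cdkn1a was higher and Cdkn1b and Cdkn2d were lower. Of the mitotic kinesins with a Kif symbol 0 of 7 passed the test, while the kinesin-like Cenpe, counted with the centromere genes, was higher. With the edgeR quasi-likelihood test (adjusted p below 0.05), 20 of the 85 tested members were higher and 6 lower, or 23.5% and 7.06%. Over all 11312 tested genes the shares were 14.3% higher and 12.1% lower. The median log2 fold change (tetramer over resting) was 0.17 for the members and -0.06 for all tested genes. With all 88 members kept in the fit, 19 were higher and 6 lower. When counts were scaled by library totals alone, where the median of all genes lay at -0.35 on the log2 scale, 18 members were higher and 9 lower, against 10.5% and 19.9% of all tested genes.

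Without tetramer library 4 only 8 members were higher and 2 lower, and all 10 were among the calls made with 4 libraries. Calls over all tested genes fell with it, to 5.33% higher and 2.68% lower. Without tetramer library 5, 18 members were higher and 3 lower, against 9.89% and 5.75% of all tested genes. A fit with 3 libraries assumes that the lone library of a group varies like the pair of the other group. The 10 calls that held under every alternative in which the gene was tested were Ccnd2, Cdkn1a, Cdkn1b, Cdc25a, E2f3, Mad2l2, Cenpt, Kif21b, Mki67 and Top2a. Of the 20 members called higher, 17 (85.0%) had a higher level in tetramer library 4 than in tetramer library 5, against 72.6% of all genes called higher. Both tetramer libraries lay above both resting libraries for 31 members (36.5%) and below them for 22 (25.9%), against 31.6% and 33.7% of all tested genes.

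**Figure D1:**
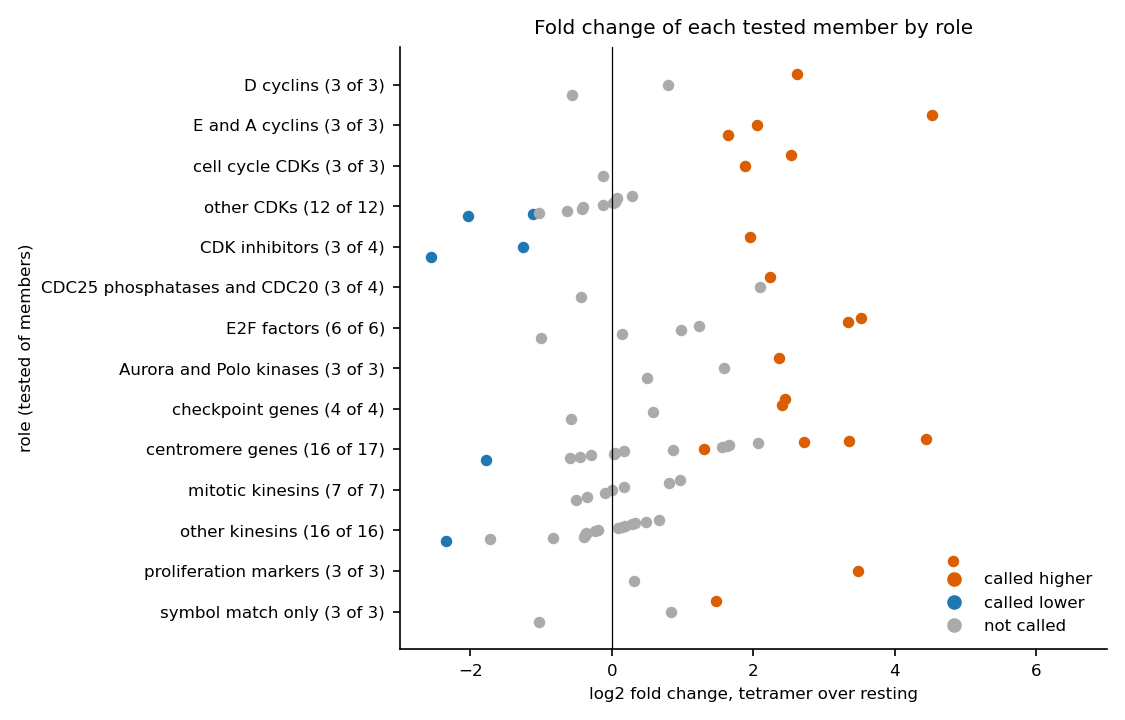
The x axis gives the log2 ratio of tetramer to resting cells for each of the 85 tested members by role, with the number tested of all members in parentheses. Colour marks calls, orange for 20 members that were higher and blue for 6 that were lower, and grey points passed no threshold. The 7 mitotic kinesins with a Kif symbol lie between -0.51 and 0.97 and none is coloured, and Cenpe is drawn with the centromere genes.

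Among the D cyclins, which link receptor signals to CDK4 and CDK6, 1 of 3, Ccnd2, was called. Over all tested genes 14.3% were higher and 12.1% lower. Ccnd2 stood at 1881 and 1408 CPM in tetramer libraries 4 and 5, against 226.6 and 307.9 CPM in resting libraries 4 and 5. The groups were far apart, with a fold of 6.15 between the means (log2 fold change 2.62 ± 0.40 (SE), edgeR adjusted p = 2.91e-05). Ccnd3, the other D cyclin of mature T cells, had 214.4 and 153.1 CPM in tetramer libraries, against 108.4 and 104.1 CPM in resting libraries. Its groups did not overlap, but its log2 fold change of 0.79 ± 0.37 did not pass the threshold (adjusted p = 0.109). Ccnd1, which is scarce in lymphocytes, was at 1.02 and 2.23 CPM in tetramer libraries and 2.49 and 2.35 CPM in resting libraries, from 5 to 12 counts a library (adjusted p = 0.589).

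Levels of different genes were compared per kilobase of annotated exon (GENCODE vM21). On this scale Ccnd2 averaged 245.1 and Ccnd3 75.1 CPM per kb in tetramer cells, against 39.8 CPM per kb for Ccnd2 and 43.4 CPM per kb for Ccnd3 in resting cells. The ranges of these D cyclins overlapped at rest, at 33.8 to 45.9 CPM per kb for Ccnd2 and 42.5 to 44.3 CPM per kb for Ccnd3, while in each tetramer library Ccnd2 was above Ccnd3. How evenly the amplified fragments covered each transcript is not known, and this limits such comparisons between genes.

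Of the kinases that partner these cyclins, Cdk4 rose. Cdk4 was at 199.9 and 93.0 CPM in tetramer libraries, against 34.6 and 44.7 CPM in resting libraries (log2 fold change 1.89 ± 0.41, adjusted p = 0.00135). All of its tetramer values exceeded its resting values, but the call was lost without tetramer library 4 (adjusted p = 0.140). Cdk6, its close relative, had 29 and 14 counts in tetramer libraries, against 6 and 1 in resting libraries (log2 fold change 2.54 ± 0.81, adjusted p = 0.0213). The rise of Cdk6 was lost without tetramer library 4 (adjusted p = 0.398), tetramer library 5 (0.0675) or resting library 5 (0.0897) and by DESeq2 (0.0722). Cdk2, the partner of cyclins E and A, lay at 17.2 and 5.87 CPM in tetramer libraries and 11.4 and 13.7 CPM in resting libraries (adjusted p = 0.897). Its groups overlapped, and the sign of its fold change turned when resting library 5 or tetramer library 5 was left out. Per kilobase, Cdk4 averaged 71.3 CPM per kb in tetramer cells and 19.3 CPM per kb in resting cells, and Cdk6 0.380 and 0.0632 CPM per kb, so Cdk4 was the more abundant of these D cyclin partners in every library.

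**Figure D2:**
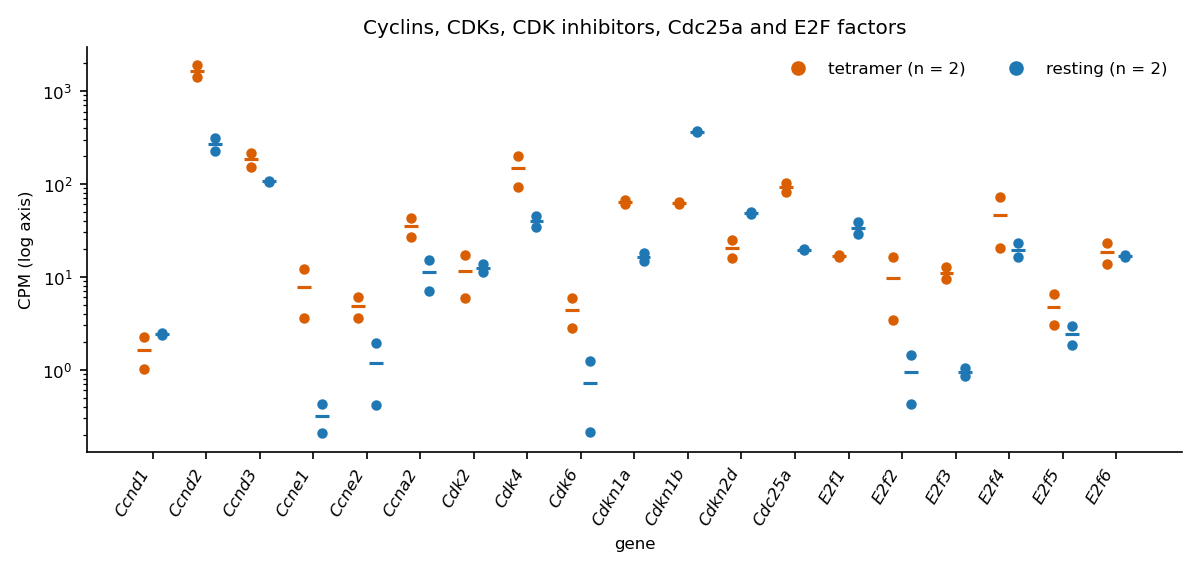
CPM on a log axis for 19 genes of cell cycle entry, with points for the 2 tetramer (orange) and 2 resting (blue) libraries and bars at their means. Among others, Ccnd2, Ccne1, Cdk4, Cdkn1a, Cdc25a and E2f3 have both tetramer points above both resting points, Cdkn1b and Cdkn2d have them below, and Cdk2 overlaps.

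All 3 cyclins of S phase in the table were called higher, as were 14.3% of all tested genes. Cyclin E1 (Ccne1), which drives entry into S phase, had 59 and 18 counts in tetramer libraries, against 1 and 2 counts in resting libraries. The scaled ratio of its summed counts was 24.8 (95% Clopper-Pearson interval 8.18 to 123.0, which covers counting error only), with an adjusted p of 0.000621 that became 0.103 without tetramer library 4. Cyclin E2 (Ccne2) was at 6.14 and 3.64 CPM in tetramer libraries and 0.414 and 1.92 CPM in resting libraries (adjusted p = 0.0455). This call was the least stable of the 3, and missed the threshold without any of resting library 4 (adjusted p = 0.189), tetramer library 4 (0.448) and tetramer library 5 (0.137), and also with library totals (0.0674), with no low count filter (0.0588) and by DESeq2 (0.116). Cyclin A2 (Ccna2), which acts in S phase and G2, had 43.0 and 26.9 CPM in tetramer libraries, against 15.3 and 7.05 CPM in resting libraries (log2 fold change 1.64 ± 0.50, adjusted p = 0.0174). Its groups did not overlap, and the call was lost without tetramer library 4 (adjusted p = 0.277) or resting library 5 (0.0916).

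CDK inhibitors moved in opposite directions. Cdkn1b, which encodes p27, stood at 60.4 and 64.1 CPM in tetramer libraries, against 358.8 and 371.4 CPM in resting libraries. It was lower in each tetramer library than in each resting library, 5.87-fold between the means, with the largest fall among the members (log2 fold change -2.55 ± 0.38, adjusted p = 2.09e-05). Leaving out single libraries moved this value only between -2.59 and -2.49. Cdkn1a, which encodes the p53 target p21, had 60.8 and 66.3 CPM in tetramer libraries, against 14.7 and 17.95 CPM in resting libraries (log2 fold change 1.96 ± 0.43, adjusted p = 0.00149). The p21 transcript was higher in each tetramer library than in each resting library, and its call held with any single library left out. Cdkn2d, the INK4 inhibitor p19 of CDK4 and CDK6, was at 24.96 and 15.8 CPM in tetramer libraries and 49.5 and 47.4 CPM in resting libraries (log2 fold change -1.25 ± 0.44, adjusted p = 0.0344). Its fall missed the threshold when resting library 4 (adjusted p = 0.0582) or either tetramer library (0.111 without library 4 and 0.305 without library 5) was left out. Cdkn1c, which encodes p57, had 5 to 13 counts a library and was not tested.

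Per kilobase of exon the order of the CIP/KIP inhibitors differed between the groups. Cdkn1a averaged 23.4 and Cdkn1b 13.7 CPM per kb in tetramer cells, against 6.01 CPM per kb for Cdkn1a and 80.2 CPM per kb for Cdkn1b in resting cells. Cdkn1a was above Cdkn1b in each tetramer library and below it in each resting library. In tetramer libraries 4 and 5 their CPM were nearly alike, at 60.8 and 66.3 for Cdkn1a and 60.4 and 64.1 for Cdkn1b. The gap per kilobase there came mostly from the annotated exon lengths, 2718 nt for Cdkn1a and 4552 nt for Cdkn1b. Cdkn2d averaged 13.8 CPM per kb in tetramer cells and 32.9 CPM per kb in resting cells.

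**Figure D3:**
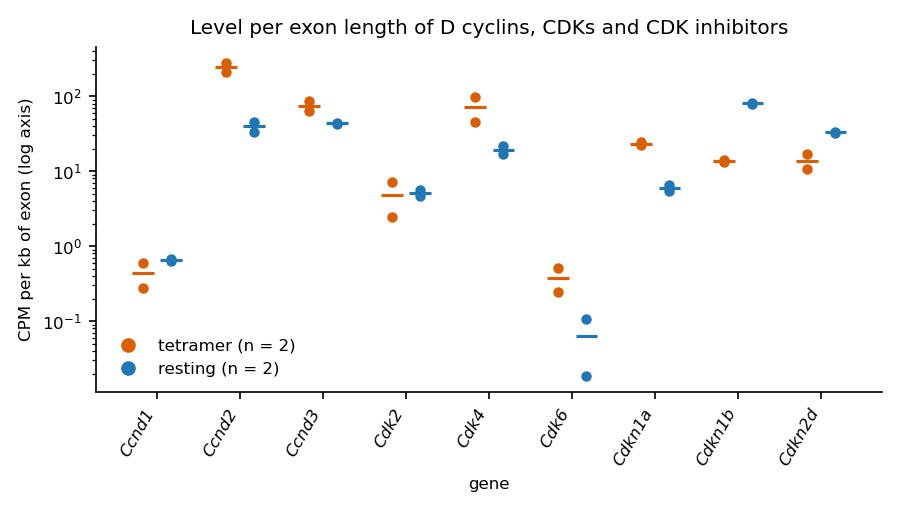
CPM per kilobase of annotated exon on a log axis for the D cyclins, their kinases, Cdk2 and the tested CDK inhibitors, with points for the 2 tetramer (orange) and 2 resting (blue) libraries and bars at the means. Cdkn1b lies at a mean of 13.7 in tetramer cells and 80.2 in resting cells, and Cdkn1a at 23.4 and 6.01.

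Cdc25a, the phosphatase that removes inhibitory phosphates from CDK2 at S phase entry, rose, while its relatives of G2 and mitosis gave no call. Cdc25a had 102.9 and 81.3 CPM in tetramer libraries, against 19.7 and 19.4 CPM in resting libraries, a fold of 4.71 (log2 fold change 2.23 ± 0.41, adjusted p = 0.000265). The call held with each library left out, at log2 fold changes of 2.07 to 2.40. Cdc25b was at 9.41 and 11.5 CPM in tetramer libraries and 14.9 and 13.5 CPM in resting libraries (adjusted p = 0.570), and Cdc25c had 4 to 12 counts a library and was not tested. Cdc20, which activates the anaphase-promoting complex (APC/C), had 52 and 10 counts in tetramer libraries, against 12 and 2 in resting libraries. Its groups overlapped, and its adjusted p of 0.0559 missed the threshold, which it passed without tetramer library 5 or resting library 4 and with the block on library number.

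Of the 6 E2F factors 2 were called (33.3% higher, against 14.3% of all tested genes). These were E2f2 and E2f3, activators of S phase genes that rose. E2f3 had 62 and 47 counts in tetramer libraries, against 5 and 4 in resting libraries (log2 fold change 3.52 ± 0.73, adjusted p = 0.000860), a call kept with any single library left out. E2f2 had 79 and 17 counts in tetramer libraries, against 7 and 2 in resting libraries (log2 fold change 3.34 ± 0.82, adjusted p = 0.00398), and without tetramer library 4 its call was lost (adjusted p = 0.393). E2f1, the third activator, lay the other way, at 16.4 and 16.99 CPM in tetramer libraries, against 28.6 and 38.5 CPM in resting libraries. Both tetramer libraries were below both resting libraries, but the log2 fold change of -1.01 ± 0.46 was past the threshold only with library totals (adjusted p = 0.105 with TMM scaling and 0.0350 with library totals). E2f4, which binds with pocket proteins in resting cells, was at 72.0 and 20.4 CPM in tetramer libraries and 16.2 and 23.1 CPM in resting libraries (adjusted p = 0.0658). The high value of tetramer library 4 set its mean: E2f4 was called without tetramer library 5 (adjusted p = 0.0120) or resting library 5 (0.0234), and its log2 fold change was 0.08 without tetramer library 4. E2f5 and the repressor E2f6 had adjusted p values of 0.301 and 0.861.

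Mki67 and Top2a, which are standard markers of proliferating cells, were strongly higher in tetramer cells, and Birc5 was not called. Mki67 had 359 and 199 counts in tetramer libraries, against 15 and 4 in resting libraries, the largest log2 fold change of the members at 4.82 ± 0.60 (adjusted p = 2.12e-06). Top2a, the topoisomerase that untangles replicated DNA, had 101.3 and 56.8 CPM in tetramer libraries, against 4.14 and 10.0 CPM in resting libraries (log2 fold change 3.48 ± 0.50, adjusted p = 1.52e-05). For both genes every tetramer value exceeded every resting value and the call held with each library left out, at 4.21 to 6.03 for Mki67 and 2.99 to 4.27 for Top2a. Birc5 (survivin), a chromosome passenger protein, was at 49.9 and 20.8 CPM in tetramer libraries and 24.0 and 33.1 CPM in resting libraries. Its groups overlapped (adjusted p = 0.654), and its sign turned without tetramer library 4.

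Cenpe, a kinesin-like motor counted with the centromere genes, was called higher (edgeR adjusted p = 0.00455). The 7 Kif genes of the mitotic spindle and midbody gave no call with 4 libraries. That count is near the background for so few genes, since 14.3% of all tested genes were higher and 12.1% lower. All 7 in the table were tested and 0 were called in either direction by edgeR's test, 0 at an unadjusted p under 0.05, and the single call under any alternative was Kif23, higher without resting library 5. With the stricter low-count filter 2 of the 7 were tested. Kif11, the motor that pushes spindle poles apart, had 39 and 28 counts in tetramer libraries, against 23 and 59 in resting libraries (log2 fold change -0.35 ± 0.62). Kif15, which works beside Kif11, was at 24.96 and 22.0 CPM in tetramer libraries and 16.8 and 30.3 CPM in resting libraries (log2 fold change 0.00 ± 0.47). Kif20a, a motor of cytokinesis, lay at 5.52 and 5.66 CPM in tetramer libraries and 9.53 and 6.41 CPM in resting libraries (log2 fold change -0.51 ± 0.61). Its values were the only ones among the 7 that did not overlap between groups. Over all tested genes both tetramer libraries lay above both resting libraries for 31.6% and below them for 33.7%. Kif23, the centralspindlin motor, had the largest value of the 7, at 0.97 ± 0.73 (25 and 18 counts in tetramer libraries, against 3 and 18 in resting libraries). Standard errors of the 7 ran from 0.47 to 0.75 on the log2 scale, and a missed threshold does not show equal levels.

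**Figure D4:**
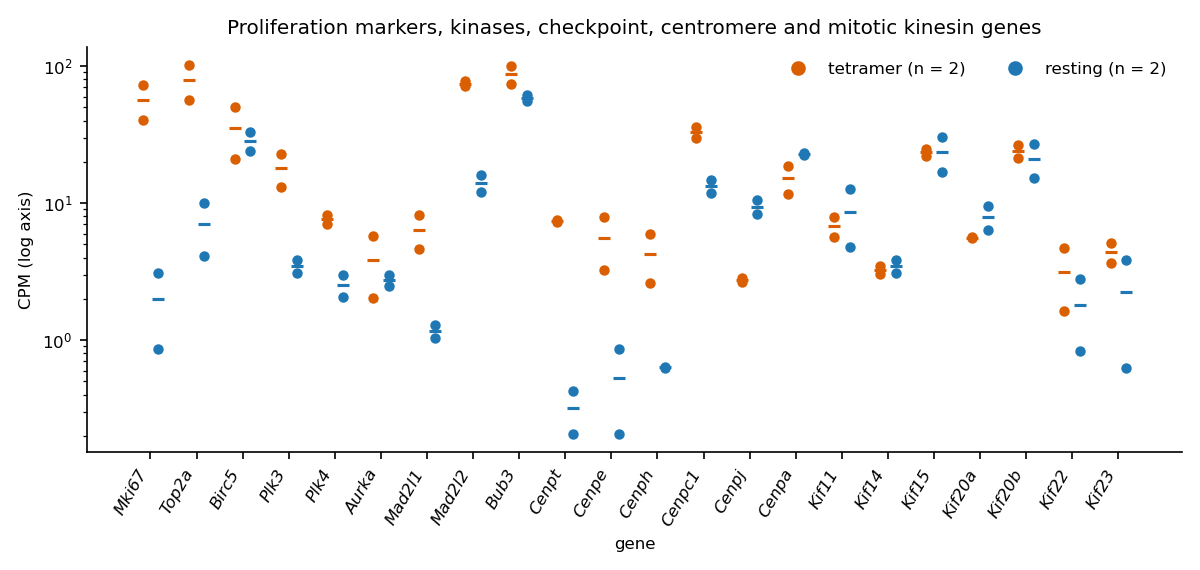
CPM on a log axis for proliferation markers, Polo-like and Aurora kinases, checkpoint, centromere and mitotic kinesin genes, with points for the 2 tetramer (orange) and 2 resting (blue) libraries and bars at the means. Mki67, Top2a, Plk3, Mad2l1, Mad2l2, Cenpt, Cenpe, Cenph and Cenpc1 separate upward and were called, and Plk4 and Bub3 separate upward without a call. Cenpj separates downward and was called, Cenpa separates downward without a call, and 6 of the 7 kinesins at the right overlap.

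Promoters of 4 genes that rose (Mki67, Top2a, E2f3 and Cdc25a) and of 2 spindle kinesins that were not called are shown for the E2F core or CHR element that each holds. In RefSeq windows of 300 bases (GRCm38.p6, 250 before to 50 after the start), which matched 72 of the 88 members in 84 windows, the CHR element TTTGAA was searched on both strands. It stood in 21 of the 84 member windows, against 17.9% of all 32851 promoter windows and 12.4% of windows of tested genes. All 6 mitotic Kif genes with a window held it, and the window of Cenpe did not. Mki67 and Top2a held 2 matches each, and so did the kinesins Kif15, Kif20b and Kif22, which were not called. The E2F core TTTNNCG, with each N a C or G, stood in 15.5% of member windows, against 6.70% of all windows and 10.8% of windows of tested genes. No E2F match overlapped a CHR match in the members. A match describes the letters and does not show that a factor binds. The 200 bases before the start follow, 5′ to 3′, with capitals at the E2F and CHR matches.
Mki67, chr7:135716380-135716579, minus strand: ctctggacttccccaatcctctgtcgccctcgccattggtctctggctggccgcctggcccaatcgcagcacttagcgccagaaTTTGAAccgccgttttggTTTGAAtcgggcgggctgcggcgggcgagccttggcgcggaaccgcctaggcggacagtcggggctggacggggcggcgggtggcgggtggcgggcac
Top2a, chr11:99024190-99024389, minus strand: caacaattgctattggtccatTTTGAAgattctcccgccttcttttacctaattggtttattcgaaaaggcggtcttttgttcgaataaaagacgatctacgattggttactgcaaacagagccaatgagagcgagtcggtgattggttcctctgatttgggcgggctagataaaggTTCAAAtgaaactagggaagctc
Kif11, chr19:37376182-37376381, plus strand: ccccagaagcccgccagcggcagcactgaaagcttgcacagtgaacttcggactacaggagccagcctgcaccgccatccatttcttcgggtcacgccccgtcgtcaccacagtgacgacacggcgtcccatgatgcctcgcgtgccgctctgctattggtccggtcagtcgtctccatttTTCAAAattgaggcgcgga
Kif15, chr9:122950881-122951080, plus strand: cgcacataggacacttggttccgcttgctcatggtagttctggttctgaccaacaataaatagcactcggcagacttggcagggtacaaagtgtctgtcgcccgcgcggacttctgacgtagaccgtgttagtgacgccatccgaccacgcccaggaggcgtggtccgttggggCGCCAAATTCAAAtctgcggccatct
E2f3, chr13:29986064-29986263, minus strand: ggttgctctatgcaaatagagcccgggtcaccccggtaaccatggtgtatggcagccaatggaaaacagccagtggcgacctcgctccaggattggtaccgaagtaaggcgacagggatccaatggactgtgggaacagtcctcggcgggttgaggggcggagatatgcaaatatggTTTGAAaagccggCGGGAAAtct
Cdc25a, chr9:109875379-109875578, plus strand: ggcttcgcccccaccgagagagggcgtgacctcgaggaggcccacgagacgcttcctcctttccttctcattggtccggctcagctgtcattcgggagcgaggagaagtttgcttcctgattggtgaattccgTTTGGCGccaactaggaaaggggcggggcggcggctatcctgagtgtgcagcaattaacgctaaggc
In Mki67, which rose, the CHR matches begin at -116 and -98 from the start, and in Top2a at -179 and -23. In Kif11 and Kif15, which did not pass the test, a CHR match begins at -19, and in Kif15 an E2F match directly before it begins at -26. Kif15 has a further CHR match at -234, before the printed stretch. E2f3 has a CHR match at -23 and E2F matches at -10 and 4, the last beyond the printed stretch. Another E2f3 window held neither the CHR element nor the E2F core, and the window with the most matches was printed. Cdc25a has an E2F match at -67 and no CHR match. Of members called higher, 4 of 17 with a window held the CHR element and 4 of 17 the E2F core (23.5% each). Of the 50 members with a window that were not called, 16 held the CHR element (32.0%) and 7 the E2F core (14.0%). Windows of members called lower (only 4 genes) held neither. Of all tested genes with a window, 14.7% held the CHR element and 12.6% the E2F core.

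Among kinases of mitosis and their relatives, Plk3 rose. Plk3, a Polo-like kinase tied to stress responses, had 22.9 and 13.1 CPM in tetramer libraries, against 3.11 and 3.85 CPM in resting libraries (log2 fold change 2.37 ± 0.60, adjusted p = 0.00474, and 0.171 without tetramer library 4). Plk4, the kinase of centriole duplication, had 40 and 35 counts in tetramer libraries, against 10 and 14 in resting libraries. Its groups were apart, but its log2 fold change of 1.58 ± 0.66 was not called (adjusted p = 0.0754). Aurka, which matures the spindle poles, had 28 and 10 counts in tetramer libraries and 12 and 14 in resting libraries (adjusted p = 0.627).

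Of the checkpoint genes Mad2l1 and Mad2l2 were higher. Mad2l1, the spindle checkpoint protein that holds back Cdc20, had 40 and 23 counts in tetramer libraries, against 5 and 6 in resting libraries (log2 fold change 2.44 ± 0.72, adjusted p = 0.0139). The call was lost without tetramer library 4 (adjusted p = 0.314) or tetramer library 5 (0.0556). Mad2l2, known mainly as the REV7 subunit of the translesion polymerase zeta, had 71.2 and 77.9 CPM in tetramer libraries, against 12.0 and 16.0 CPM in resting libraries (log2 fold change 2.41 ± 0.43, adjusted p = 0.000209), and was called with any single library left out. Bub3, a scaffold of the same checkpoint, was at 100.9 and 73.6 CPM in tetramer libraries and 55.7 and 61.3 CPM in resting libraries (adjusted p = 0.268). Mad2l1bp, which helps to switch Mad2 off, had overlapping values (adjusted p = 0.402).

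Centromere protein genes varied widely among themselves. Of 17, 16 were tested, 4 were higher and 1 lower, and their median log2 fold change was 1.09. For comparison, 14.3% of all tested genes were higher and 12.1% lower, with a median log2 fold change of -0.06. Fewer centromere genes were called without tetramer library 4, as was so over all tested genes. Cenpt, which anchors the outer kinetochore to centromeric DNA, had 37 and 36 counts in tetramer libraries, against 1 and 2 in resting libraries. Its scaled ratio was 23.5 (counting interval 7.74 to 116.7), the tetramer libraries were nearly alike, and the call held with each library left out (adjusted p = 0.000420 with 4 libraries). Cenpe, a kinesin-like motor that aligns chromosomes, had 39 and 16 counts in tetramer libraries, against 1 and 4 in resting libraries (adjusted p = 0.00455, and 0.234 without tetramer library 4). Cenph, of the inner kinetochore, had 29 and 13 counts in tetramer libraries and 3 and 3 in resting libraries, a ratio of 6.77 (counting interval 2.86 to 19.5). Its call (adjusted p = 0.0129) was lost without tetramer library 4 (0.383) or tetramer library 5 (0.0524) and by DESeq2 (0.0507). Cenpc1, which binds the centromeric nucleosome, was at 29.9 and 35.8 CPM in tetramer libraries and 11.8 and 14.7 CPM in resting libraries (adjusted p = 0.0407). The groups lay apart, yet the adjusted p of Cenpc1 became 0.104 on leaving out resting library 4, 0.167 on leaving out tetramer library 4 and 0.238 on leaving out tetramer library 5, and it was not called with library totals (0.105).

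The one centromere symbol that fell, Cenpj, names a centriole elongation protein, with 13 and 14 counts in tetramer libraries, against 51 and 39 in resting libraries (log2 fold change -1.77 ± 0.64, adjusted p = 0.0411). Cenpj was no longer called after removal of resting library 4 (adjusted p = 0.0640) or of tetramer library 4 (0.314) or 5 (0.222). Cenpa, the histone H3 variant that marks the centromere, was at 18.6 and 11.7 CPM in tetramer libraries, against 23.4 and 22.4 CPM in resting libraries (adjusted p = 0.385). The 10 other tested centromere genes ranged from -0.45 (Cenpo) to 2.06 (Cenpw) on the log2 fold change scale, and Cenpp, at 3 to 8 counts a library, was not tested.

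Among CDKs outside the core cycle, some of which act in transcription, 0 of 12 rose and 2 fell. That is 16.7% lower, which is near the 12.1% of all tested genes. Cdk19, a kinase of the Mediator complex, had 9.82 and 11.9 CPM in tetramer libraries, against 42.7 and 46.6 CPM in resting libraries (log2 fold change -2.03 ± 0.46, adjusted p = 0.00212, and 0.0587 without tetramer library 4). Its paralogue Cdk8 had overlapping values, at 10.2 and 5.06 CPM in tetramer libraries and 9.12 and 5.34 CPM in resting libraries. Cdk7, the kinase of TFIIH that also activates other CDKs, was at 36.4 and 35.8 CPM in tetramer libraries and 72.9 and 84.0 CPM in resting libraries (log2 fold change -1.12 ± 0.39, adjusted p = 0.0351). After removal of resting library 5 the adjusted p of Cdk7 was 0.104, and it was 0.246 and 0.186 after removal of tetramer library 4 or 5. The other 10 ranged from -1.03 (Cdk5) to 0.29 (Cdk20) on the log2 fold change scale.

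Kinesins of transport and other tasks, taken in by their symbols, gave 0 higher and 1 lower of 16, or 6.25% lower. Over all tested genes 14.3% were higher and 12.1% lower. Kif21b, a motor that limits microtubule growth, stood at 63.6 and 87.0 CPM in tetramer libraries, against 409.8 and 357.1 CPM in resting libraries, 5.09-fold lower between the means (log2 fold change -2.35 ± 0.38, adjusted p = 6.23e-05). The call held with each library left out, at -2.58 to -2.12. Kif5b, the main conventional kinesin, overlapped between groups, at 332.3 and 469.3 CPM in tetramer libraries and 360.9 and 294.5 CPM in resting libraries. The other 14 ranged from -1.73 (Kif5c, adjusted p = 0.0713) to 0.66 (Kif24).

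Another 3 symbols matched the rule by name while their products have other roles. Cdkn2aipnl, a paralogue of part of the Cdkn2aip protein, was higher (55.5 and 37.4 CPM in tetramer libraries, against 12.4 and 20.9 CPM in resting libraries, adjusted p = 0.0179), a call lost without tetramer library 4 (0.269) or resting library 4 (0.0883). Cdkn2aip and the mitochondrial protein gene Aurkaip1 were not called (adjusted p = 0.102 and 0.0829), although Cdkn2aip was with library totals (0.0336). Without these 3 symbols, 19 members were higher and 6 lower.

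**Figure D5:**
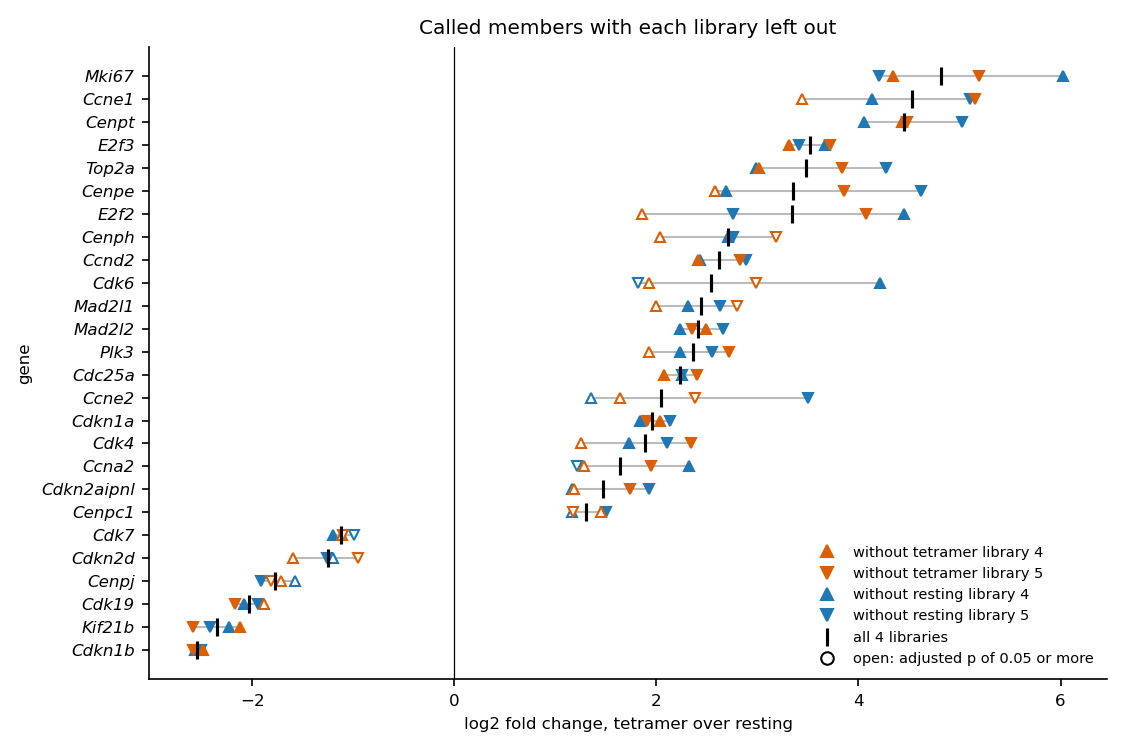
Tetramer over resting, as log2 fold change, for the 26 called members with all 4 libraries (black bars) and with each library left out (triangles, orange for tetramer and blue for resting libraries). Open triangles mark an adjusted p of 0.05 or more, and the upward orange triangles, without tetramer library 4, are open for 16 of the 26.

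Genes of the same pathway outside the symbol rule were taken from a list of 103 further symbols, of which 86 were in the table and 82 tested. Of these, 20 were higher and 8 lower (24.4% and 9.76%, against 14.3% and 12.1% of all tested genes), with a median log2 fold change of 0.50. Leaving out tetramer library 4 left fewer calls of the list in both directions, and fewer over all tested genes as well. Around the pocket proteins, 2 of 10 genes rose and 2 fell, or 20.0% each, against the same 14.3% and 12.1% of all tested genes. Tfdp1, the partner that E2F factors need to bind DNA, had 24.6 and 7.28 CPM in tetramer libraries, against 0.829 and 0.855 CPM in resting libraries (log2 fold change 4.20 ± 0.77, adjusted p = 0.000247, and 0.0627 without tetramer library 4). The pocket protein p130 (Rbl2), typical of resting cells, had 7.98 and 20.8 CPM in tetramer libraries, against 105.0 and 56.6 CPM in resting libraries (log2 fold change -2.49 ± 0.48). Its call held with each library left out. Mybl2, a transcription factor of S phase and G2, rose by 2.41 ± 0.74 on the log2 scale, a call lost without tetramer library 4 (adjusted p = 0.586). Rb1, named after its values were seen, was the second gene of this list that fell, at 36.8 and 34.8 CPM in tetramer libraries, against 158.9 and 94.0 CPM in resting libraries (adjusted p = 0.00135).

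Of 15 regulators of CDKs and of replication licensing, 4 rose and 1 fell (26.7% and 6.67%, against 14.3% and 12.1% of all tested genes). Cdc6, which loads the replicative helicase, had 54.2 and 23.5 CPM in tetramer libraries, against 3.11 and 1.07 CPM in resting libraries (log2 fold change 4.20 ± 0.62). Wee1, the kinase that opposes Cdc25, had 16.6 and 14.2 CPM in tetramer libraries, against 2.07 and 0.214 CPM in resting libraries (log2 fold change 3.71 ± 0.75). Ccng2, a cyclin linked to cell cycle arrest, had 0.818 and 0.809 CPM in tetramer libraries, against 16.2 and 8.98 CPM in resting libraries (log2 fold change -3.91 ± 0.74). Calls for Cdc6, Wee1 and Ccng2 held with each library left out.

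The APC/C and its partners gave 2 higher and 2 lower of 17. Each is 11.8%, near the 14.3% higher and 12.1% lower of all tested genes. Ube2s and Anapc5 rose by 1.53 ± 0.47 and 1.44 ± 0.38 on the log2 scale and Anapc10 changed by -1.44 ± 0.54. Calls of these 3 were lost without tetramer library 4 (adjusted p = 0.559, 0.123 and 0.111), and that of Anapc10 also without tetramer library 5 (0.348) or resting library 5 (0.274), with DESeq2 size factors (0.0501) and by limma-voom (0.0521). Outer kinetochore genes gave 4 higher and 1 lower of 14 tested (28.6% and 7.14%, against the same shares of all tested genes). Spdl1 and Spc25 changed by 2.74 ± 0.84 and 2.44 ± 0.67 on the log2 scale, and Nsl1 by -1.76 ± 0.45. For Spdl1, with 29 counts in the tetramer pair and 4 in the resting pair, the ratio was 7.01 (counting interval 2.46 to 27.4). These 3 calls were also lost without tetramer library 4 (adjusted p = 0.204, 0.112 and 0.0648), and each with at least 1 more library left out.

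The list of passenger, spindle and cytokinesis genes gave 4 higher and 1 lower of 11 tested (36.4% and 9.09%, against 14.3% and 12.1% of all tested genes). Its name does not cover all its genes, since Cdca5, a cohesin protector, and Cdca7 were also placed in it. Both were among its higher genes. Cdca7, a Myc and E2F responsive gene, had the largest change of the list, at 22.5 and 21.6 CPM in tetramer libraries, against 0.207 and 0.427 CPM in resting libraries (log2 fold change 6.02 ± 0.78), and held with each library left out. The ratio of its summed counts was 69.9 (counting interval 23.6 to 341.8), from 3 counts in the resting pair. The passenger subunit borealin (Cdca8) and the cohesin protector sororin (Cdca5) rose by 3.89 ± 0.78 and 3.35 ± 0.73, and both calls were lost without tetramer library 4 (adjusted p = 0.174 and 0.116). Condensin and cohesin genes gave 4 higher and 1 lower of 15 (26.7% and 6.67%, against the same shares of all tested genes). The condensin subunits Ncapg, Ncaph and Ncaph2 rose by 3.07 ± 0.79, 2.57 ± 0.82 and 1.43 ± 0.37, and all 3 calls were lost without tetramer library 4 (adjusted p = 0.300, 0.380 and 0.0920). Ncaph was also lost without tetramer library 5 (0.0806) or resting library 5 (0.0836) and by DESeq2 (0.0813).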

How the data were processed

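Read counts per gene symbol for 4 libraries were deposited by the authors as 1 table, and Bowtie2, DESeq2 and build mm9 are named, without versions, per the submitters' processing notes. The sources used here do not name the counting tool, strand use or treatment of shared reads. Libraries were made from polyadenylated RNA with 23 PCR cycles and a fragment size of 200 to 400 nt, per the labels' protocols. Columns were matched to groups by name; their numbers 4 and 5 match no sample title. The row of Tmem138, with a cell that is no number, was left out, which left 12020 genes.

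edgeR 4.0.16 in R 4.3.3 tested the counts (filterByExpr, 11312 genes kept, TMM, quasi-likelihood F test, Benjamini-Hochberg adjustment over all tested genes, threshold 0.05). The common coefficient of biological variation was 0.322. CPM are counts per 1000000 of the TMM-scaled library, and standard errors come from the F statistic. Where both libraries of a group had at most 3 counts of a named gene, a ratio of scaled counts with its 95% Clopper-Pearson interval is given. Alternatives were other scalings and filters, DESeq2 1.42.0, limma-voom (limma 3.58.1), each library left out, and a block on library number. Libraries of a group differed beyond sampling noise (chi-square 28.0 times its degrees of freedom in the tetramer pair and 30.9 times in the resting pair), and since the labels do not say that they came from separate mice, p-values measure the spread between libraries, which may be technical. The fit was also tested on simulated data with known changes.

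The members, roles and lists were chosen with earlier results of these data known. Named genes were all called members, Mki67, Top2a, Birc5, all cyclins, Cdk2, Cdk4, Cdk6, CDK inhibitors and E2F genes, and up to 3 called genes with the largest change from each part of the pathway list; other genes, such as relatives of called members and those at the ends of a range, were named after their values were seen. Promoters are from RefSeq (GRCm38.p6) and were matched by symbol, and exon lengths from GENCODE vM21, a build other than mm9. Files were summarised with Python 3.11.15 and pandas 2.3.3 and drawn with matplotlib 3.10.9.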

Additional observations from a re-analysis of the deposited data

How the results depend on the processing

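Members called higher numbered 17 to 24 with DESeq2 size factors, library totals, no low count filter, DESeq2, limma-voom or the block, and members called lower 6 to 9. Over all tested genes these settings called 10.5% to 15.0% higher and 10.9% to 19.9% lower. With the stricter filter (a mean of at least 10 CPM), which tested fewer genes, 11 members and 9 genes of the pathway list were higher. Of the 7894 genes tested with this filter 16.3% were higher. With single libraries left out, members called higher numbered 8 to 22 and members called lower 2 to 6, and genes of the pathway list 4 to 25 higher and 4 to 8 lower; the lowest counts came without tetramer library 4, and the cause was not tested. The sign of the log2 fold change turned for 3 of the 9 members not called that were followed through the alternatives. With single libraries left out Cdk2 ran from -1.07 to 0.46 (0.04 without resting library 5), E2f6 from -0.26 to 0.47 and Birc5 from -0.44 to 0.81, and E2f6 was at -0.16 with library totals. Library number served as a replicate block, which called 24 members higher and 7 lower, and 22 and 8 genes of the pathway list. Deviations of same-numbered libraries from their group means had a correlation of 0.042 across genes, and with 2 pairs and no label tying the numbers together, they were not taken as pairs. Of the 26 called members, 10 kept their call under all alternatives in which they were tested. Depth and precision varied among members: Ccnd1, at 5 to 12 counts a library, had a standard error of 0.72 on the log2 scale, and Ccnd2, at 1094 to 9195 counts, 0.40.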
